A study of Mus musculus with 6 samples.

Results

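The mRNAs of the integrin and laminin chains were followed in mouse neural stem cells (NSCs). The chains are all genes of the deposited table whose symbol names an integrin α chain, one of the numbered integrin β chains or a laminin chain. The families were chosen with earlier results of these data known. Within them the symbol was the only criterion, and no measured value was used. It gave 38 of the 53379 genes in the table, of which 19 encode integrin α chains, 8 integrin β chains and 11 laminin chains. The 38 entries carry 37 symbols, since *Itgam* is listed under a pair of identifiers.

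The NSCs came from the telencephalic cortex of mouse embryos at E14.5, were homozygous for a floxed *Tbl1xr1* allele (flox/flox) and were maintained as neurospheres in suspension. In the control group they had been infected with a lentivirus expressing GFP alone, and in the other group with a lentivirus expressing Cre and GFP, after which GFP-positive cells were sorted. RNA-seq values cover 3 libraries per group, numbered 1, 1_1 and 2 for control, while those labelled Cre are numbered 2, 2_2 and 3. All 6 libraries thus come from flox/flox cells with a virus and GFP, and the groups differ by Cre. In the study Cre served to delete the floxed part of *Tbl1xr1*, so the Cre group is its knock-out group. Nothing in the labels says whether the libraries came from separate cultures, so the p-values measure only the spread between these libraries.

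Integrins are heterodimers of an α and a β chain that span the plasma membrane and bind extracellular matrix outside the cell and the actin cytoskeleton, through adaptor proteins, inside it. Laminins are trimers of an α, a β and a γ chain that form a main part of basement membranes. In the embryonic cortex, neural progenitors attach by integrins to the laminin-rich basement membrane under the meninges and are exposed to laminins around the ventricle.

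Values are normalized counts, that is reads per gene divided by 1 size factor per library, and differences are limma estimates on the scale log2(normalized count + 1), Cre minus control, with p-values adjusted over all 14840 genes with a mean of at least 10. A gene was called at an adjusted p under 0.05. The libraries held 7510635 to 14828173 reads on genes. *Tbl1xr1* itself, counted over the whole gene and not over its floxed part alone, was at 2522, 2189.8 and 2721 in control replicates 1, 1_1 and 2 and at 3774, 3463 and 2905 in Cre replicates 2, 2_2 and 3 (log2 difference 0.45, SE 0.14, adjusted p 0.060). It was not lower in any library labelled Cre than in control. Since reads outside the floxed part are counted too, this value does not check the labels, and the groups are named here by them.

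NSC markers were abundant in all libraries, with a summed level of 37159 to 41284 in control and 37524 to 40351 in Cre for 9 genes. Of these, 6 had a positive and 3 a negative log2 difference, with a median of 0.24. The one called was *Nes* (nestin), which fell by 0.85 on the log2 scale (adjusted p 0.004). That is 11.1% called, close to the 9.96% of all genes tested. Markers of other cells were followed because several chains are made by vascular, meningeal or immune cells. The summed level of 6 endothelial markers was 30.7 to 41.3 in control and 14.3 to 20.1 in Cre. *Cdh5* and *Cldn5* had no read in any library, and the one endothelial marker tested, *Kdr*, had a log2 difference of -1.34 (adjusted p 0.068). For 6 fibroblast, pericyte and meningeal markers the sum was 1.84 to 12 in control and 4.85 to 22.4 in Cre, with *Col1a2* and *Pdgfrb* at 0. For 8 microglia and leukocyte markers it was 174 to 217 in control and 177 to 282 in Cre, mostly *Csf1r*, with *Tyrobp* at 0. Astrocyte markers summed to 724 to 854 in control and 2852 to 3809 in Cre. Of 4 tested, 3 (75.0%) were called higher, among them *S100b*. The other tested marker was lower in Cre, without overlap between the groups, but was not called. Oligodendrocyte lineage markers summed to 12247 to 14139 and 16904 to 19247 (2 of 5, or 40.0%, called higher, *Olig2* and *Pdgfra*). Of all genes tested, 4.74% were called higher. Neuronal markers summed to 9252 to 9470 in control and 10104 to 11329 in Cre. None of the 5 tested was called, and 3 had a positive and 2 a negative log2 difference (median 0.10). In bulk RNA, fewer cells of a type and less RNA per cell cannot be told apart, and the part of these cell types in the differences below was not tested.

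Of the 38 chains, 19 reached a mean of 10 and were tested. The called laminin chains were both lower with Cre, while integrin chains were called in both directions. In all, 3 chains were higher (*Itga1*, *Itga2* and *Itgb8*) and 4 were lower (*Lama4*, *Lamb1*, *Itga4* and *Itga9*), and the other 12 were not called. Among all genes tested, 4.74% were called higher and 5.22% lower. Calls in either direction took 36.8% of the chains tested, against 9.96% of all genes tested. The groups did not overlap for 12 of the 19 chains (63.2%), against 30.3% of all genes. The median log2 difference of the 19 chains was -0.43 and that of all genes tested 0.00, and 6 of the chains had a positive and 13 a negative difference. *Itga2* and *Itga9* passed the limit through the group in which they are high, since their means in the other group were 9.63 and 4.72. Both are counted in the share of calls and in the share without overlap, which the limit thus helped to raise.

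**Figure D1:**
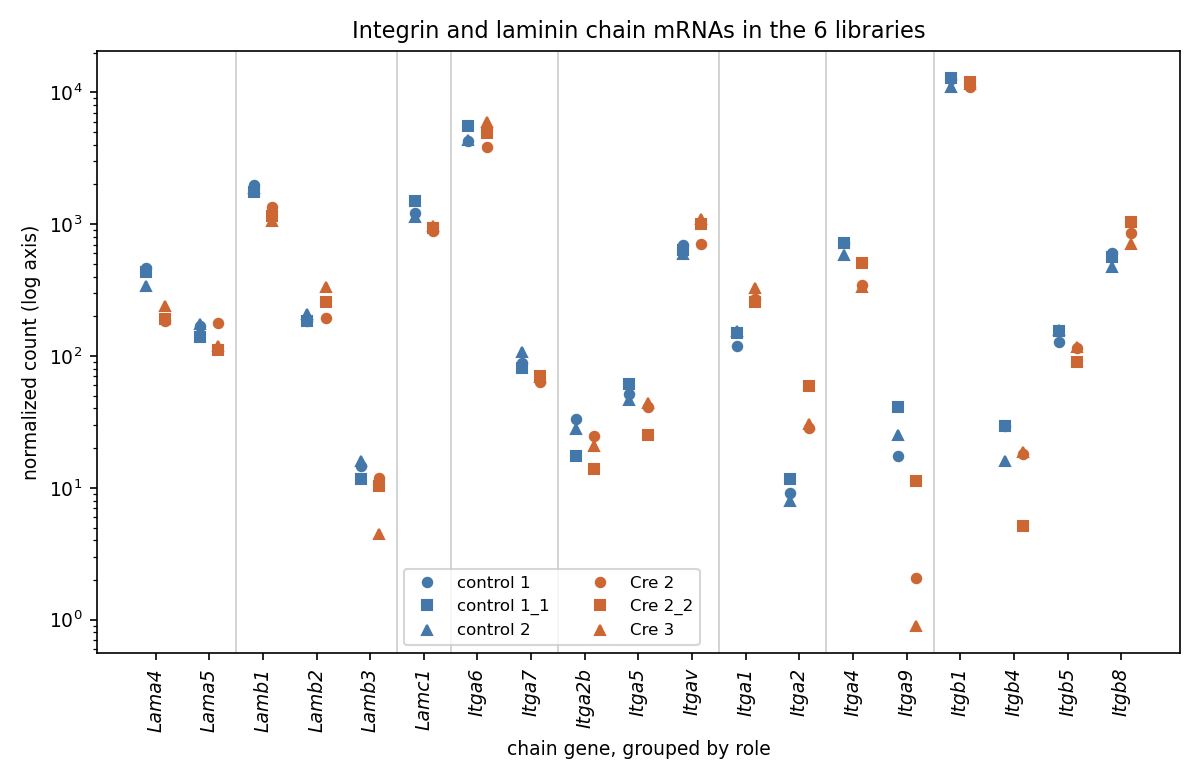
Normalized count (log axis) of the 19 chain genes tested, grouped by role, with a point for each of the 3 control libraries (blue) and the 3 libraries labelled Cre (orange). *Itgb1* and *Itga6* lie highest with the groups intermixed, while the groups do not overlap for 12 chains, which are the 7 called ones and *Lamc1*, *Itgav*, *Itga5*, *Itga7* and *Itgb5*.

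**Figure D2:**
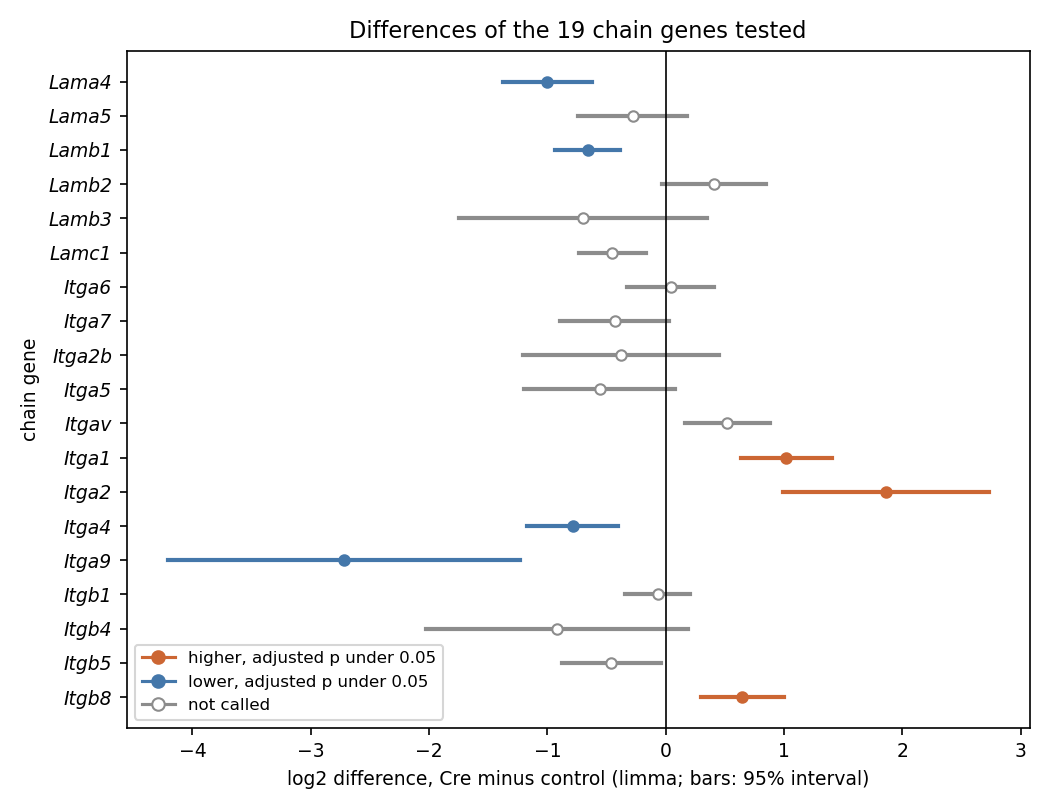
Log2 difference (Cre minus control) of the 19 chain genes tested, with its 95% interval from limma. Orange points mark the 3 chains called higher, blue points the 4 called lower and open grey points the 12 not called. The intervals of *Itga9*, *Itgb4*, *Lamb3* and *Itga2* are the widest, and the points of *Itgb1* and *Itga6* lie nearest to 0.

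The upstream sequences of 4 of the called integrin genes are shown because they are the genes of opposite direction whose windows end at the start of the gene. Each line gives the 250 bases before the start on the strand of the gene, from RefSeq GRCm38.p6 (the mm10 build), with capitals for a match to a motif searched on both strands. *Itga4* lies at chr2:79255176-79255425 (+), *Itgb8* at chr12:119238277-119238526 (-), *Itga1* at chr13:115101965-115102214 (-) and *Itga2* at chr13:114932101-114932350 (-).
Itga4: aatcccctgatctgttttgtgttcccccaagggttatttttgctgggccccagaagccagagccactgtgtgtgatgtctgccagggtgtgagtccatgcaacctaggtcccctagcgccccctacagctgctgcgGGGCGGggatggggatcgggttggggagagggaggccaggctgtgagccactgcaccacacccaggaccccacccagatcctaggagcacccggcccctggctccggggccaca
Itgb8: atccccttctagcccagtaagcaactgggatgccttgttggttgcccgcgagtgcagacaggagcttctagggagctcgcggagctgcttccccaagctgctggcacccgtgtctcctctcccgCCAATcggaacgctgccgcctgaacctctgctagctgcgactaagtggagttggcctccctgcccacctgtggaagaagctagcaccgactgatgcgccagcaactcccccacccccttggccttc
Itga1: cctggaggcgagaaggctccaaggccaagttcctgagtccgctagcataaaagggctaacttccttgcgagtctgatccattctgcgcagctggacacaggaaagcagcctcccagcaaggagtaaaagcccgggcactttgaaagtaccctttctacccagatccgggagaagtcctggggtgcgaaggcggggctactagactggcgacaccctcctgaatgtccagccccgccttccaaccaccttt
Itga2: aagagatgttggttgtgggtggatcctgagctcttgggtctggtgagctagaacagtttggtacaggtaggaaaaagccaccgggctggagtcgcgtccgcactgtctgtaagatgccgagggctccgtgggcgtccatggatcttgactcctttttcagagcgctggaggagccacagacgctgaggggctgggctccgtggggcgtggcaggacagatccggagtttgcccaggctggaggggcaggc

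The capitals mark a GC box (letters GGGCGG) 114 bases before the start of *Itga4* and a CCAAT box (letters CCAAT) 126 bases before that of *Itgb8*. No motif searched was matched in the windows of *Itga1* and *Itga2*. Over 26 windows for 23 of the 37 symbols, 9 windows held the GC box, 4 the CCAAT box, 1 the AP-1 site (TGANTCA), and none the TATA box (TATAAA), the E2F site (GGCGGGAA) or the E-box CACGTG. Over all 32851 windows of the same length the shares were 32.7%, 33.8%, 6.75%, 12.4%, 1.86% and 6.02% in that order. A match describes the letters of the window and no binding was measured. Bases shortly after the RefSeq start were found in a GENCODE M1 transcript of the same gene for *Itga4*, *Itgb8* and *Itga1*. Those of *Itga2* were in none of its transcripts on either strand, so its start rests on RefSeq alone. *Lama4* and *Lamc1* had no window.

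The laminin chains with the highest level per kb of exon in their class were *Lama4*, *Lamb1* and *Lamc1*, whose products can assemble into one trimer. *Lama4* encodes the α4 chain, a chain typical of vascular and mesenchymal basement membranes. Its normalized count was 463, 433 and 337 in control and 184, 191 and 238 in Cre. Every library labelled Cre was below every control library, and the mean was 2.01-fold lower (log2 difference -1.0, SE 0.17, adjusted p 0.005). *Lamb1*, the β1 chain shared by many laminins, was at 1974, 1764 and 1871 in control and 1353, 1159.6 and 1048 in Cre. The groups were apart again, and *Lamb1* was 1.57-fold lower (log2 difference -0.66, SE 0.126, adjusted p 0.008). Without control replicate 1 its adjusted p was 0.060, at a log2 difference of -0.62.

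*Lamc1*, the γ1 chain of most laminins, was at 1216, 1496 and 1139 in control and 889, 936 and 974 in Cre. These values did not overlap, but the difference of -0.45 (SE 0.131) missed the threshold at an adjusted p of 0.051. On the recovered reads it was called by edgeR (adjusted p 0.047) and DESeq2 (adjusted p 0.039). In limma it stayed uncalled without any single library (adjusted p 0.053 to 0.188). It also stayed so with control replicates 1 and 1_1 averaged (adjusted p 0.142) or Cre replicates 2 and 2_2 averaged (adjusted p 0.078). With all 6 libraries, limma did call *Lamc1* at a pseudocount of 5 or a mean of at least 50 (adjusted p 0.049 and 0.048). It did so too with TMM or total count scaling (adjusted p 0.049 and 0.045). The summed level of the 6 endothelial markers given above was lower in Cre too, at 30.7 to 41.3 in control and 14.3 to 20.1 in Cre. However, *Kdr*, the one tested, was not called, and *Cdh5* and *Cldn5* had no read. The sum of the 6 fibroblast, pericyte and meningeal markers overlapped, at 1.84 to 12 in control and 4.85 to 22.4 in Cre. The part of these cell types in the laminin differences was not tested.

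The other laminin chains did not pass the test. *Lama5*, the α5 chain of mature basement membranes, had a log2 difference of -0.28 (adjusted p 0.445), and *Lamb3*, a chain of epithelial laminin, one of -0.70 (adjusted p 0.399). *Lamb2*, which can take the place of the β1 chain, was at 183, 184 and 208 in control and 193, 255 and 335 in Cre. The groups overlapped, and its difference was 0.41 (SE 0.200, adjusted p 0.229). Without Cre replicate 2, the lowest of its group, the difference was 0.61 (adjusted p 0.033). Without Cre replicate 3, the highest, it was 0.21 (adjusted p 0.514). Leaving out any of the remaining libraries left *Lamb2* uncalled as well (adjusted p 0.311 to 0.449). *Lama1*, *Lama2* and *Lama3* had at most 12 reads in any library, and *Lamc3* had none.

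Levels were compared between genes per kb of exon. *Lamb1* fell from 189 ± 10.6 to 120 ± 15.6 normalized counts per kb (mean ± SD, n = 3 in each group), and *Lama4* from 34.1 ± 5.42 to 16.9 ± 2.43. *Lamc1* was at 155 ± 22.7 in control and 113 ± 5.14 in Cre. Summed over the chains of a class, laminin α mRNA was at 48.6 ± 4.86 per kb in control and 29.8 ± 3.47 in Cre, and laminin β mRNA at 226 ± 11.2 and 168 ± 4.66. The groups did not overlap for either sum, and the 2-sided exact permutation p was 0.1, the smallest that 3 libraries against 3 allow.

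Within the classes the proportions differed as well. *Lama4* made up 69.8% ± 5.05 of laminin α mRNA per kb in control and 57.1% ± 8.01 in Cre, and *Lama5* 29.5% ± 5.25 and 39.7% ± 8.12. *Lamb1* held 83.5% ± 1.24 of laminin β mRNA in control and 71.1% ± 7.56 in Cre. The *Lamb2* share was 13.8%, 15.4% and 16.1% in control and 19.7%, 27.5% and 35.8% in Cre, so each library labelled Cre was above each control library (exact permutation p 0.1, 2-sided, again the smallest possible). A lower *Lamb1* raises this share by itself, so it is not a result separate from that of *Lamb1*. The *Lamb2* counts overlapped and were not called, and they were added after they were seen. For *Lama5* the shares overlapped (exact permutation p 0.2).

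**Figure D3:**
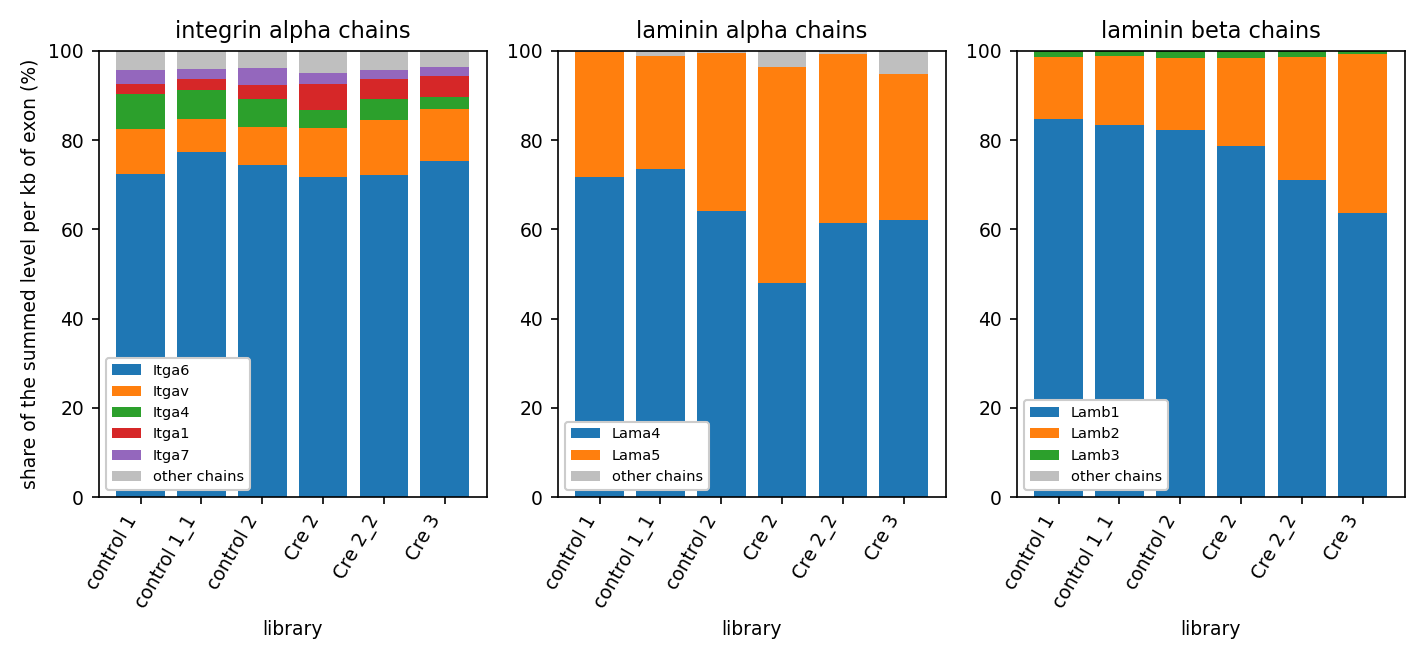
Share of the summed level per kb of exon (%, axis from 0 to 100) that each chain takes among integrin α, laminin α and laminin β mRNAs in each of the 6 libraries, with the chains not drawn singly in grey. *Itga6* takes 71.7% to 77.4% of integrin α mRNA in the 6 libraries, and *Lamb2* 19.7% to 35.8% of laminin β mRNA in the libraries labelled Cre.

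Among the integrin α chains that bind laminin, *Itga6* dominated. It was at 4270.0, 5551 and 4353 in control and 3875, 4895 and 5952 in Cre, with the groups intermixed (log2 difference 0.04, 95% interval -0.32 to 0.41, adjusted p 0.901). The sign of this small difference depended on single libraries, with -0.02 without control replicate 1, -0.01 without control replicate 2 and -0.11 without Cre replicate 3. *Itga7*, the other laminin receptor chain tested and best known from muscle, did not overlap between the groups, at 80.5 to 108 in control and 63.0 to 70.6 in Cre, but was not called (log2 difference -0.43, adjusted p 0.224). *Itga3* had at most 6 reads in a library.

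*Itgb1*, the β1 chain with which the α6, α1, α2, α4 and α9 chains pair, was the most abundant chain. It was at 12544, 12801 and 10987 in control and 10948, 12015 and 11616 in Cre. The groups overlapped, and the difference was -0.07 (95% interval -0.34 to 0.21, adjusted p 0.782). Per kb, *Itgb1* was at 2968 ± 241 in control and 2824 ± 132 in Cre, whereas all integrin α chains together were at 699 ± 83.2 and 742 ± 138. *Itgb1* thus took 95.9% to 97.0% of integrin β mRNA in the 6 libraries.

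The collagen-binding α chains that were tested were both higher, although *Itga2* passed the limit on the mean through the Cre group. *Itga1*, the α1 chain, which binds collagens and laminins, was at 118, 151 and 153 in control and 271, 257 and 329 in Cre. The groups were far apart and *Itga1* was 2.03-fold higher (log2 difference 1.02, SE 0.174, adjusted p 0.005). *Itga2*, the α2 chain of a related collagen receptor, was at 9.18, 11.7 and 8.0 in control and 28.4, 59.4 and 30.4 in Cre, or 10, 8 and 6 reads against 41, 69 and 34. It did not overlap between the groups and was 4.09-fold higher (log2 difference 1.86, SE 0.395, adjusted p 0.014), with Cre replicate 2_2 the highest. It was no longer called without control replicate 1 (adjusted p 0.058), control replicate 2 (adjusted p 0.060) or Cre replicate 2_2 (adjusted p 0.072), at log2 differences of 1.84, 1.75 and 1.53.

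*Itga1* and *Itga2* are direct neighbours on chromosome 13, at 114958079 to 115101964 and 114833081 to 114932100 in GRCm38.p6, 26.0 kb apart. The further collagen-binding chains *Itga10* and *Itga11* stayed under the limit, with 4 to 22 reads per library for *Itga11*.

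The α4 and α9 chains, a pair of related integrins that bind VCAM1, fibronectin variants, osteopontin or tenascin, were both lower. However, *Itga9* passed the limit on the mean through the control group. *Itga4* was at 721, 718 and 580.1 in control and 348, 504 and 333 in Cre. No library overlapped with the other group, and the mean was 1.70-fold lower (log2 difference -0.79, SE 0.175, adjusted p 0.017). Its adjusted p was 0.094 without control replicate 1 and 0.078 without control replicate 1_1, at -0.73 and -0.74. With these same control replicates averaged as 1 sample it was 0.082. Exons of *Itga4* share 1124 bases (8.04%) with *Cerkl* on the opposite strand. The library kit does not mark strand, so reads in the shared bases cannot be assigned, and *Cerkl* itself was lower (log2 difference -0.86, adjusted p 0.046).

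*Itga9* was rare, at 17.4, 41.0 and 25.3 in control and 2.08, 11.2 and 0.895 in Cre. In reads this was 19, 28 and 19 against 3, 13 and 1. The values did not overlap and the mean was 5.91-fold lower (log2 difference -2.72, SE 0.678, adjusted p 0.029). The call was lost without control replicate 1, 1_1 or 2 or Cre replicate 3 (adjusted p 0.072, 0.131, 0.110 and 0.052), with log2 differences of -3.00, -2.41, -2.75 and -2.16. Averaging control replicates 1 and 1_1 as 1 sample ended it as well (adjusted p 0.086).

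The RGD-binding integrins recognize fibronectin, vitronectin and latent TGFβ. *Itgb8*, the β8 chain, pairs with αv to form a receptor that activates latent TGFβ in the developing brain. It was at 602, 568 and 471 in control and 849.8, 1031 and 707 in Cre. All libraries labelled Cre lay above control and *Itgb8* was 1.58-fold higher (log2 difference 0.65, SE 0.160, adjusted p 0.028). Its call was lost without control replicate 1, 1_1 or 2 or Cre replicate 2_2 (adjusted p 0.068, 0.077, 0.126 and 0.121), with differences of 0.72, 0.68, 0.54 and 0.51. It was also lost when control replicates 1 and 1_1 were averaged and counted as 1 sample (adjusted p 0.071). As a share of integrin β mRNA per kb, *Itgb8* took 1.53% to 1.72% in control and 2.17% to 3.04% in Cre.

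Its partner *Itgav* was at 698, 633 and 592 in control and 708, 1003 and 1091 in Cre. The groups did not overlap, but Cre replicate 2 was close to control replicate 1, and the difference of 0.52 (SE 0.164) was not called (adjusted p 0.069). Without Cre replicate 2 the difference was 0.71 (adjusted p 0.003). Leaving out any other single library left *Itgav* uncalled (adjusted p 0.146 to 0.224). With Cre replicates 2 and 2_2 averaged limma called it (adjusted p 0.026), but not with control replicates 1 and 1_1 averaged (adjusted p 0.154). On the recovered reads it was called by DESeq2 (adjusted p 0.035) and not by edgeR (adjusted p 0.057). A total of 634 bases (5.90%) of its exons are shared with *Gm13684* on the opposite strand.

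*Itga5*, the α chain of the classical fibronectin receptor, and *Itgb5*, a partner of αv, had differences of -0.56 (adjusted p 0.259) and -0.46 (adjusted p 0.159). Neither was called, although their groups did not overlap. *Itga2b*, the platelet chain, had a difference of -0.38 (adjusted p 0.576) and *Itgb4*, the partner of α6 in epithelia, one of -0.92 (adjusted p 0.288), with overlapping groups.

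*Itgb3*, another αv partner, was too rare for the test, at 1.84, 1.46 and 1.33 in control and 11.8, 3.44 and 8.06 in Cre. These values stand for 2, 1 and 1 reads against 17, 4 and 9, and they did not overlap. With no limit on the mean, its adjusted p was 0.188. *Itga8* had 3 to 14 reads per library, and *Itgb6* had none.

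The leukocyte integrins were rare or absent. The highest per kb was *Itgae*, at 8.26, 11.7 and 1.33 in control and 11.8, 7.75 and 12.5 in Cre, with overlapping groups. *Itgad* had 0, 1 and 3 reads in control and 23, 11 and 4 in Cre, which overlapped on the normalized scale. *Itgal* had at most 4 reads and *Itgam*, *Itgb2* and *Itgb7* at most 1 read in any library. *Itgax* and the second *Itgam* entry had none. A count of 0 still allows up to 3 reads in a library, or 2.08 to 4.39 normalized counts, by counting error alone. With no limit on the mean, the limma adjusted p of the 15 rarer chains with any read ran from 0.150 to 0.887.

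Genes that work with these chains were described from 3 lists. The intracellular effectors (25 genes, among them talins, kindlins, *Ilk* and *Ptk2*) link integrin tails to actin and signaling, and 20 were tested. By limma none was called in either direction (5 of 20, or 25.0%, had an unadjusted p under 0.05, against 25.5% of all genes tested), edgeR called none and DESeq2 called 1 higher and 1 lower. Their median log2 difference was -0.10. Their summed level was 7306 to 7823 in control and 7433 to 8029 in Cre.

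Of 25 matrix ligands and basement membrane proteins, 19 were tested. Their median log2 difference was 0.17, and the test called 4 of them higher and 2 lower. That is 31.6% called, against 9.96% of all genes tested. *Fbln2*, a fibulin that binds laminins, was at 1904, 1932 and 1758 in control and 4031, 4372 and 5607 in Cre. It did not overlap between the groups (log2 difference 1.31, adjusted p 2.8e-04). *Vcam1*, a ligand of the α4 and α9 integrins, was at 139, 138 and 156 in control and 327, 461 and 354 in Cre and also did not overlap (log2 difference 1.38, adjusted p 7.3e-04). *Fn1*, fibronectin, and *Tgfb2*, a TGFβ ligand, were higher by log2 differences of 0.86 and 0.50 (adjusted p 0.031 for each).

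*Col4a1* and *Col4a2*, the chains of the main type of collagen IV in basement membranes, were lower. *Col4a1* was at 160, 126 and 153 in control and 42.2, 54.2 and 43.9 in Cre. The groups were apart (log2 difference -1.62, adjusted p 0.001). *Col4a2* had a log2 difference of -1.61 (adjusted p 0.032). The summed level of the endothelial markers given above, of which *Kdr* alone was tested and was not called, was lower in Cre as well. The part of endothelial cells in the differences of *Col4a1* and *Col4a2* was not tested.

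Of 19 other matrix receptors and membrane partners of integrins, 17 were tested. Their median log2 difference was -0.01, and limma called 2 of them higher and none lower. That is 11.8% called, close to the 9.96% of all genes tested. Of those 17, 5 (29.4%) had an unadjusted p under 0.05, against 25.5% of all genes tested, and neither edgeR nor DESeq2 called any lower. *Ddr2*, a receptor tyrosine kinase for fibrillar collagens, had a log2 difference of 0.89 (adjusted p 0.009). *Cspg4*, the NG2 proteoglycan of oligodendrocyte precursors and pericytes, had one of 0.64 (adjusted p 0.029). The sums of the oligodendrocyte lineage markers given above were higher in Cre too. A link between these sums and *Cspg4* was not tested.

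**Figure D4:**
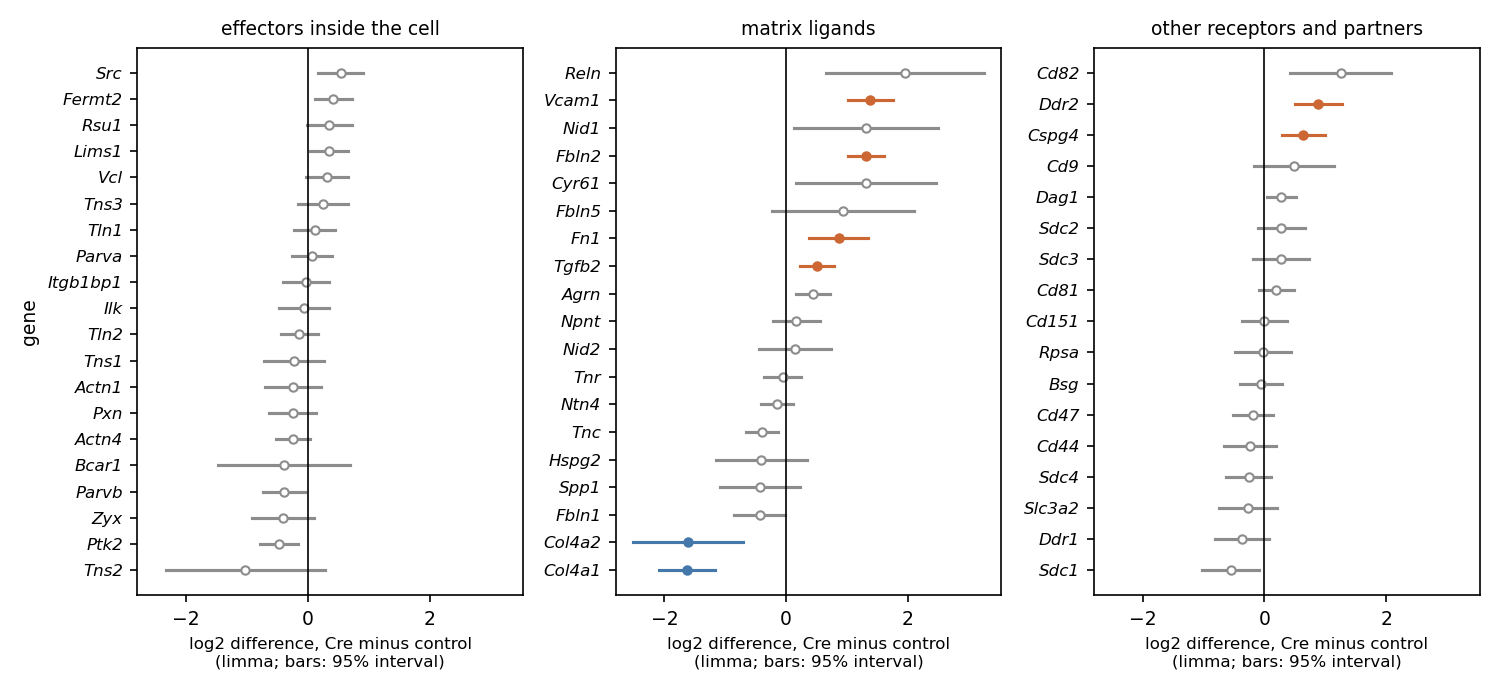
Log2 difference (Cre minus control) of the 56 partner genes tested, with 95% intervals from limma, in the 3 lists. Orange points are genes called higher, blue points genes called lower and open grey points genes not called. No effector is colored, and *Col4a1* and *Col4a2* are the only genes in blue.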

How the data were processed

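The authors prepared unstranded TruSeq RNA v2 libraries and deposited 1 table of normalized counts per gene and library, a signal obtained by dividing read counts by a DESeq2 size factor. The methods name TopHat with mm9 and mm10, and the submitters' processing notes name STAR 2.7 and mm10. The read counter, its strand setting and the annotation are not given in the sources used here. The same table holds the authors' own fold changes and p-values, which were not used. The table has 53379 genes, 873 of them without a name, and 1 gene with a missing value was left out.

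Samples were grouped from their labels. The deposited signal came out as whole reads for 100% of values (tolerance 0.01 read, values under 1000 reads). Recovered reads totalled 11161516 (replicate 1), 7510635 (1_1) and 7762821 (2) for control, and 14828173 (replicate 2), 12210214 (2_2) and 11893301 (3) for Cre. The main test was limma 3.58.1 in R 4.3.3 with a mean-dependent prior variance (the trend option of eBayes), after a pseudocount of 1 and log2 transformation, with Benjamini-Hochberg adjustment. It was tested on simulated counts drawn independently for each library with the same dispersion for all genes. Real libraries need not follow this, so that test does not cover libraries that are repeats of a culture. On the deposited values limma called 1478 genes. On the recovered reads edgeR 4.0.16 called 1483 and DESeq2 1.42.0 called 1755. Other alternatives were pseudocounts of 0.5 and 5, no limit on the mean, a mean of at least 50, TMM or total count scaling, an adjusted p under 0.1, averaging control replicates 1 and 1_1 or Cre replicates 2 and 2_2, and leaving out each library. Exon lengths came from GENCODE M1 (37 chains matched), which may differ from the annotation of the authors, and coordinates from RefSeq GRCm38.p6 by symbol (37 matched). Values in every library are given for chains that were called, for the most abundant chain per kb of each role, and for chains whose groups do not overlap with a difference of at least 1. Those of *Lamb2* and the reads of *Itgad* were added after they were seen. From the partner lists the text names called genes. The values of 1 rare chain are not reported here. The chains and lists were chosen with earlier results of these data known. Figures were drawn with matplotlib 3.10.9 in Python 3.11.15.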

Additional observations from a re-analysis of the deposited data

How the results depend on the processing

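Of 298 alternative values of the 19 chains, 268 kept their direction and their side of the threshold, 17 lost a call, 10 gained one and 3 changed sign. *Itga1* and *Lama4* were called under all 16 alternatives run. Averaging the control pair and the Cre pair at once was not among them. The 3 changes of sign were those of *Itga6* without 1 library, whose values then ran from -0.11 to 0.20 and included -0.02 and -0.01. Averaging control replicates 1 and 1_1 left 2 chains called higher in place of 3, 2 lower in place of 4 and, among partner genes, 3 higher in place of 6 and 1 lower in place of 2. Leaving out 1 library gave 1 to 5 chains higher (1 without control replicate 1, control replicate 2 or Cre replicate 2_2, and 5 without Cre replicate 2) and 1 to 4 lower (1 without control replicate 1 and 2 without control replicate 1_1). For partner genes it gave 2 to 9 higher (2 without control replicate 1, 3 without control replicate 1_1 or 2, 4 without Cre replicate 2_2) and 1 to 6 lower (1 without any control library or Cre replicate 2_2, 6 without Cre replicate 2, 4 without Cre replicate 3). DESeq2 called 10 partner genes higher, and an adjusted p under 0.1 gave 11 higher and 4 lower. A mean of at least 50 left 1 lower, as did averaging Cre replicates 2 and 2_2. The cause of these changes was not tested. edgeR called 3 chains higher and 5 lower and DESeq2 called 4 and 5. No paired analysis was possible because the groups share only 1 replicate number, 2. Depth limits the chains with a mean under 10, which have at most 23 reads in a library.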

Other observations

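Genes beside the called chains were looked at after their values were seen. *Mocs2*, an enzyme gene of molybdenum cofactor synthesis that lies 3.66 kb from *Itga2*, was at 517, 560.3 and 529 in control and 854, 639.6 and 760.2 in Cre, with no overlap (log2 difference 0.48, limma adjusted p 0.049). *Pelo*, a gene that lies within *Itga1*, was at 668 to 766 in control and 618 to 964 in Cre, which overlapped (log2 difference 0.22, adjusted p 0.450). *Ctdspl*, 25.5 kb from *Itga9*, was lower (log2 difference -0.55, adjusted p 0.040), whereas *Golga4*, 24.2 kb away on the other side, had a log2 difference of 0.25 (adjusted p 0.194). *Dld*, 1.92 kb from *Lamb1*, had a log2 difference of 0.06 (adjusted p 0.847). *Fam229b*, 8.62 kb from *Lama4*, had one of 0.93 (adjusted p 0.097), opposite in sign to *Lama4* and not called.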
